A study of Rattus norvegicus with 40 samples.

Results

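S100a8 and S100a9 encode the 2 subunits of calprotectin, the calcium- and zinc-binding protein also called MRP8/14. They were found by their symbols in every deposited table: 2 gene models of the 31677 in each table, of which 14949 carried a symbol. RNA was sequenced from T cells isolated from the blood and the kidney of rats of the Dahl SS (salt-sensitive) strain, in which salty food raises blood pressure and injures the kidney. The labels give 2 rat types, SS/MCW and SS/CRL, and 2 chows, LS and HS, read here as low and high salt. The 5 groups of rats were SS/MCW on LS at 7 weeks of age, SS/MCW on LS at 10 weeks, SS/MCW on HS for 3 weeks at 10 weeks, SS/CRL on LS at 10 weeks, and SS/CRL on HS for 3 weeks at 10 weeks. Each was measured in circulating and in kidney T cells, which made 10 groups of 4 libraries, 40 in all, each from a pool of 3 rats. SS/CRL rats at 7 weeks are in no group.

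Calprotectin is made in bulk by neutrophils and, at a lower level, by monocytes, where S100a8 and S100a9 form a heterodimer that fills much of the cytosol. Released protein signals through TLR4 and RAGE on other cells and draws in more neutrophils, and it withholds zinc and manganese from microbes. In T cells both genes are usually low. In bulk RNA, fewer cells of a type and less RNA per cell cannot be told apart.

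The deposited tables give 1 value per group in FPKM, sequenced fragments per unit of transcript length and of library size, as the authors' Cuffdiff run made them. No spread between the 4 pools of a group could be computed, and the depth of the libraries is unknown. A gene is called changed where the q-value in the authors' deposited table, its p-value adjusted for all gene models tested, is under 0.05. The standard error (SE) of a log2 fold change was obtained from it and the test statistic of the same row, as their quotient. For several calls below it is wide against the deposited p-value, and the q-value that the test statistic itself gives is printed beside them. T cell genes marked the circulating cells strongly. The FPKM of 18 T cell identity genes summed to between 5151 and 6538 in the circulating groups and to between 289.4 and 1084 in the kidney groups, and Cd3e, which encodes CD3ε, was at 674.1 to 830 and 22.6 to 110.3 FPKM. The kidney groups also held RNA of kidney tubule: 11 proximal tubule genes summed to between 3903 and 13240 FPKM there and to at most 1.01 FPKM in the circulating groups.

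The 2 genes are neighbours on chromosome 2. In the coordinates of the deposited tables, build rn5, S100a8 spans chr2:209507680-209508690, 1011 bases, and S100a9 spans chr2:209531411-209534219, 2809 bases, with 22721 bases between them. The next gene model before S100a8 is S100a6, 65076 bases away, the near end of a run of S100 genes (S100a16, S100a3, S100a4, S100a5 and S100a6). After S100a9 the next gene model lies 889543 bases away and has no symbol, and S100a10 follows at 1432090 bases. Because the pair moved together in circulating cells (below), the promoter of S100a9 is shown, as the 250 bases before its start in RefSeq on build GRCr8, chr2:178490623-178490872, minus strand, 5′ to 3′, with the TATA box in capitals.
S100a9: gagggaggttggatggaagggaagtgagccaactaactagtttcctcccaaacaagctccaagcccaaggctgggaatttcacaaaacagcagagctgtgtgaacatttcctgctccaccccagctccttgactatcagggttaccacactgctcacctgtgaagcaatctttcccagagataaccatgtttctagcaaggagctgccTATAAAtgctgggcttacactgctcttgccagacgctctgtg
S100a8 has no entry in the promoter table. The TATAAA starts 42 bases before the gene's start. Among the 250-base windows of 33469 promoters, 12.9% held TATAAA on either strand. The search also covered the motifs of factors that act in myeloid cells or inflammation, each on both strands. C/EBP (TTGCNNAA) was found in 9.22% of all windows, PU.1 (GAGGAAG) in 10.2%, AP-1 (TGANTCA) in 6.34% and STAT (TTCNNNGAA) in 7.67%, and none of these 4 was in the S100a9 window. C/EBP and PU.1 motifs can be looser than these letters, so the absence concerns these letters in this window only.

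In circulating T cells S100a8 was at 12.6 FPKM in SS/MCW rats on LS at 7 weeks, 11.9 in SS/MCW on LS at 10 weeks, 6.74 in SS/MCW on HS, 12.3 in SS/CRL on LS and 4.40 in SS/CRL on HS (medians over the tables that hold the group). S100a9 was at 16.7, 14.1, 6.89, 13.8 and 3.54 FPKM in the same groups. Both genes were thus highest in the 3 LS groups, lower in SS/MCW on HS and lowest in SS/CRL on HS. On LS they stood near the middle of the expressed genes: S100a8 in SS/CRL rats was at the 43.6th percentile of 9390 gene models with at least 1 FPKM, and S100a9 at the 47th. On HS in the same rats they stood at percentiles 19.1 and 15.3 of 9387 such models.

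In kidney T cells the levels were lower and less even. S100a8 was at 3.34 FPKM in SS/MCW on LS at 7 weeks, 1.22 in SS/MCW on LS at 10 weeks, 3.90 in SS/MCW on HS, 4.32 in SS/CRL on LS and 0.492 in SS/CRL on HS. S100a9 was at 3.44, 6.85, 6.14, 8.76 and 3.58 FPKM. The lowest S100a8 level of the 10 groups was thus in kidney cells of SS/CRL rats on HS and the highest S100a9 level in circulating cells of SS/MCW rats on LS at 7 weeks. The same group came out alike in each table that holds it: S100a8 in circulating SS/CRL cells on HS was between 4.28 and 4.89 FPKM over its tables, and in circulating SS/MCW cells on LS at 10 weeks between 11.7 and 13.2.

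**Figure D1:**
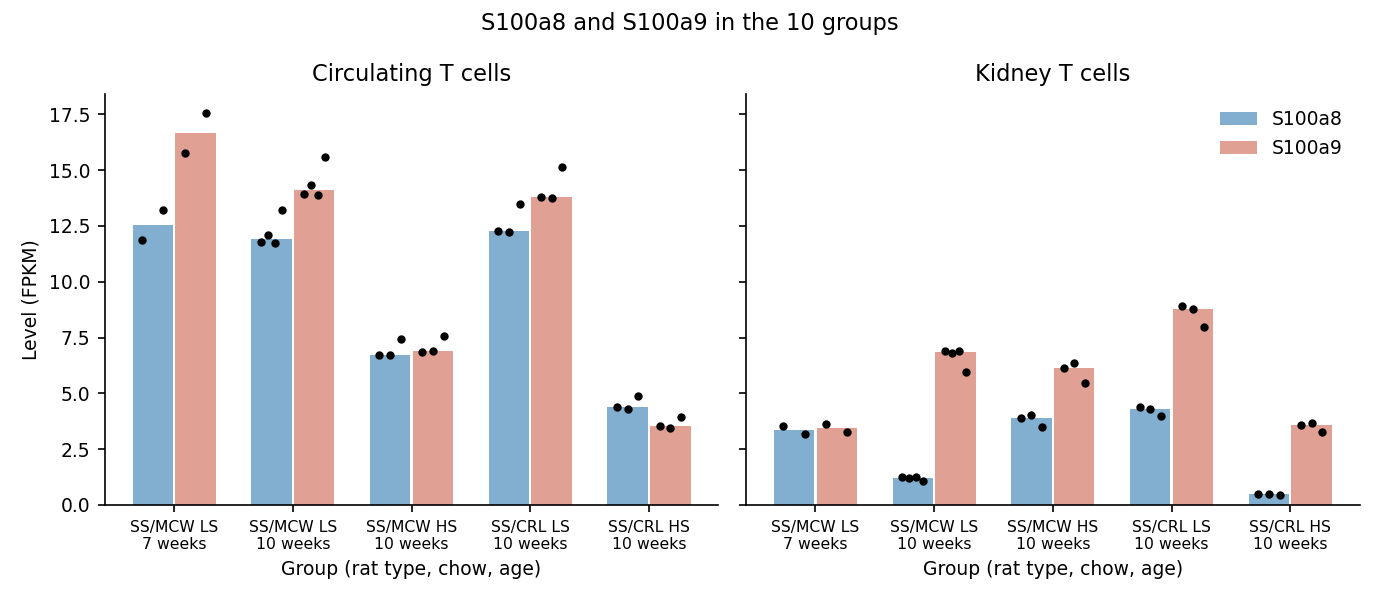
Levels of S100a8 (blue) and S100a9 (red) in FPKM in the 5 groups of circulating (left) and kidney (right) T cells; bars are medians over the deposited tables that hold a group and each black point is the group's value in 1 table, not a library. In circulating cells both genes are between 11.9 and 16.7 FPKM in the 3 LS groups and between 3.54 and 6.89 FPKM in the 2 HS groups.

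The 2 genes kept near-equal levels in circulating cells. The ratio of S100a9 to S100a8 FPKM was 1.33 in SS/MCW on LS at 7 weeks, 1.18 in SS/MCW on LS at 10 weeks, 1.02 in SS/MCW on HS, 1.12 in SS/CRL on LS and 0.805 in SS/CRL on HS. In kidney cells it was 1.03, 5.55, 1.57, 2.03 and 7.37 in the same order of groups. The 2 kidney groups with the highest ratios were the 2 with the least S100a8, at 1.22 and 0.492 FPKM. These ratios carry no test, since each rests on 1 value per gene and group.

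High against low salt in circulating SS/CRL cells was the only comparison within a tissue in which either gene was called, and both were. S100a8 fell from 12.3 to 4.40 FPKM and S100a9 from 13.8 to 3.54 FPKM. The falls were 2.79-fold (log2 fold change -1.48 ± 0.60 SE, 95% interval -2.65 to -0.31) and 3.89-fold (-1.96 ± 0.53, -3.0 to -0.92). In the authors' deposited table both had p = 5e-05 and q = 0.0106. That p is the smallest in each of the 15 tables, so it does not set the pair apart. Fcnb, Hba1 and Pf4 (below) had the same q in this comparison. In this comparison 0.67% of gene models were called, 115 of 17169, with 37 higher and 78 lower. Among the 28 called falls of gene models with a symbol and at least 5 FPKM in the higher group, S100a9 had the largest fall and S100a8 the next. Both passed that filter through their LS level only, and the other called falls were not ranked. The rank is thus a description and no test. The q-values computed from the test statistics were 0.335 for S100a9 and 1.000 for S100a8, so the calls hold with the authors' p-values and not with these.

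In circulating SS/MCW cells both genes were also lower on HS, but neither was called. S100a8 was at 11.8 FPKM on LS and 6.70 on HS in that table (log2 fold change -0.81 ± 0.67), with p = 0.0115 and q = 0.611 in the authors' deposited table. S100a9 was at 13.9 and 6.86 FPKM (-1.02 ± 0.56), with p = 0.0002 and q = 0.103 in the authors' deposited table. Only 0.107% of gene models were called here, 18 of 16885. The difference between the salt effects of the 2 rat types, SS/CRL minus SS/MCW, was -0.67 ± 0.89 (95% interval -2.42 to 1.08) for S100a8 and -0.94 ± 0.77 (-2.46 to 0.58) for S100a9 on the log2 scale. Both intervals hold 0. A normal test on the 2 log2 fold changes and their SEs, with Benjamini-Hochberg adjustment over 16360 gene models, called neither difference, and it called 6 other gene models. Only 27 of the 16360 had p under 0.05 in this test, fewer than SEs of the right size would give with no difference at all. The SEs are thus wide over the whole comparison, and the lack of a call says little. A call in SS/CRL and none in SS/MCW is therefore not shown to be a difference between the rat types.

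Of 7280 gene models with a symbol and at least 5 FPKM on LS in both rat types, 2 fell on HS by at least as much as S100a8 in both, and they were S100a8 and S100a9 themselves. The size of fall was set by S100a8 after its values were seen, and the filter was on LS, where the pair is high. This describes the pair and is no test.

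The 2 rat types did not separate on LS. S100a8 was at 12.3 FPKM in circulating SS/CRL and 12.1 in SS/MCW cells (log2 fold change, SS/CRL over SS/MCW, 0.02 ± 0.53, 95% interval -1.02 to 1.05), and S100a9 at 13.7 and 14.3 FPKM (-0.06 ± 0.45, -0.94 to 0.82). On HS both were lower in SS/CRL cells: S100a8 at 4.28 against 6.74 FPKM (-0.66 ± 0.72), with p = 0.0584 and q = 1.000 in the authors' deposited table, and S100a9 at 3.44 against 6.89 FPKM (-1.0 ± 0.65), with p = 0.0026 and q = 0.465 in the authors' deposited table. Neither was called in either table, where 0.541% of gene models on LS and 0.241% on HS were called. Age gave no call for the pair in SS/MCW rats on LS. From 7 to 10 weeks S100a8 went from 11.9 to 11.7 FPKM (-0.02 ± 0.61, 95% interval -1.22 to 1.18). S100a9 went from 15.8 to 13.9 FPKM (-0.18 ± 0.50, -1.16 to 0.80). In this comparison 1.94% of gene models were called. The intervals are wide, so larger changes with age are not excluded. These comparisons share groups with the salt comparisons and are not independent of them.

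No comparison within kidney T cells called either gene, and the SEs there ran from 1.51 to 3.21, against 0.45 to 0.72 within circulating cells. On HS against LS in SS/MCW rats S100a8 was at 3.90 against 1.24 FPKM (log2 fold change 1.65 ± 2.19, 95% interval -2.63 to 5.94) and S100a9 at 6.14 against 6.90 FPKM (-0.17 ± 1.94, -3.98 to 3.64). In SS/CRL rats S100a8 was at 0.492 on HS against 4.39 FPKM on LS (-3.16 ± 3.21, -9.44 to 3.13) and S100a9 at 3.58 against 8.94 FPKM (-1.32 ± 1.66, -4.57 to 1.93). Differences as large as the circulating falls, or larger, lie inside these intervals. The background was 0.433% of gene models called in SS/MCW and 5.51% in SS/CRL. The remaining kidney comparisons gave the same lack of a call: S100a8 was 1.86 ± 2.45 higher in SS/CRL on LS and S100a9 0.36 ± 1.75 higher, where 1.81% of gene models were called. On HS the values were -3.01 ± 2.76 and -0.78 ± 1.51, where 5.72% were called, and from 7 to 10 weeks -1.50 ± 2.27 and 0.93 ± 2.07, where 1.07% were called.

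The salt effects in kidney and circulating cells could not be separated either. In SS/CRL rats the kidney effect minus the circulating effect was -1.68 ± 3.26 for S100a8 (95% interval -8.07 to 4.71) and 0.64 ± 1.74 for S100a9 (-2.77 to 4.05). In SS/MCW rats it was 2.46 ± 2.29 (-2.02 to 6.94) and 0.85 ± 2.02 (-3.11 to 4.82). The same test called none of these 4. It gave p under 0.05 for only 108 of 11762 gene models in SS/CRL and 30 of 12479 in SS/MCW, so here too it could call little. It takes the 2 tissues as independent, and pools of both tissues carry the same numbers in the labels, and whether the same rats gave both could not be tested. The difference between the rat types' salt effects in kidney cells was -4.81 ± 3.88 for S100a8 (-12.4 to 2.80) and -1.15 ± 2.55 for S100a9 (-6.16 to 3.86), and neither was called. There the test gave p under 0.05 for 109 of 16430 gene models.

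**Figure D2:**
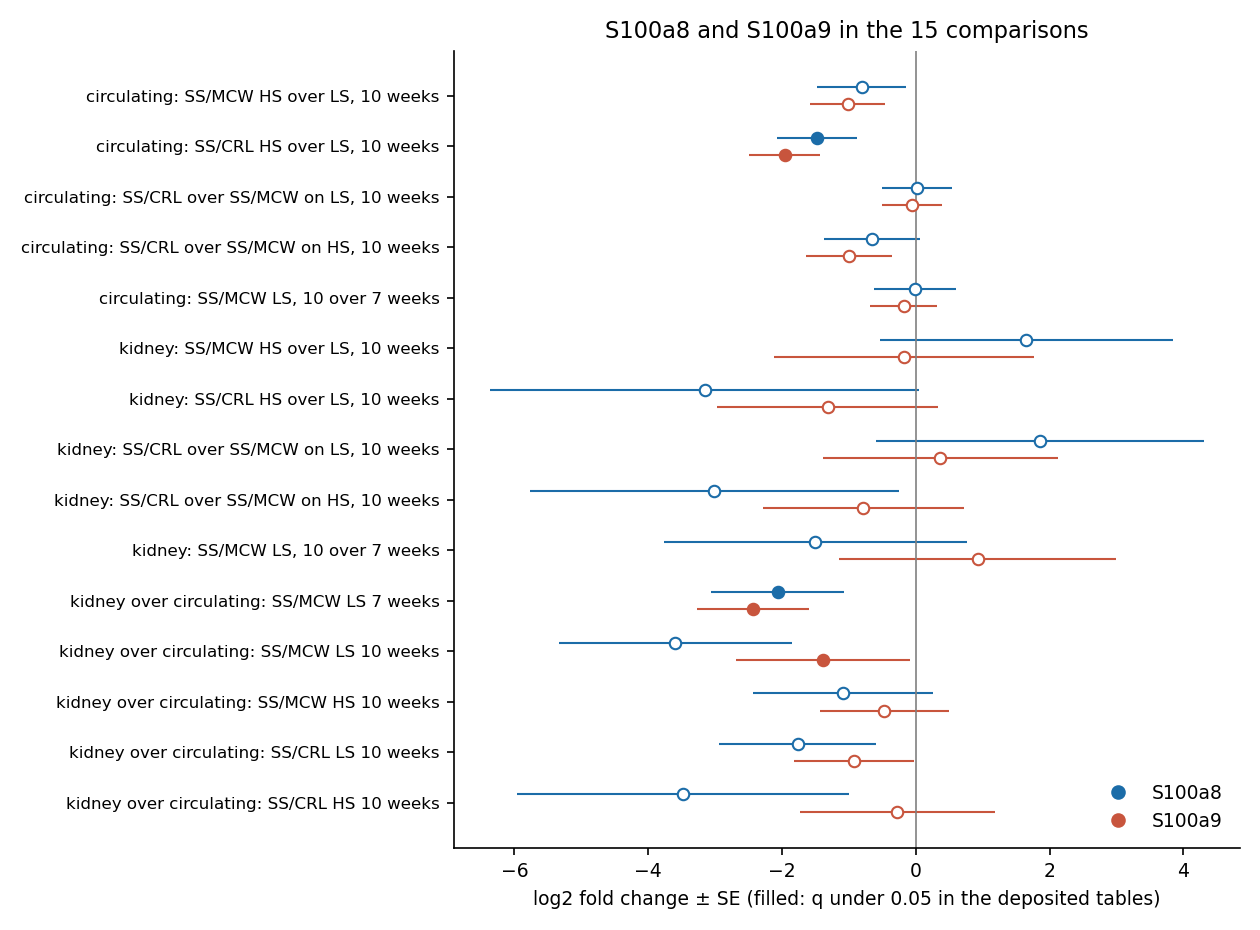
Log2 fold change ± SE of S100a8 (blue) and S100a9 (red) in the 15 deposited comparisons, listed by cells and groups; filled points have q under 0.05 in the authors' deposited tables. The 5 filled points are the 2 genes in circulating SS/CRL cells on HS, both in kidney against circulating SS/MCW cells at 7 weeks, and S100a9 in the same tissue comparison on LS at 10 weeks, and the bars are widest within kidney cells.

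Kidney against circulating cells gave lower values in all 10 cases, and 3 were called. Since tissue comparisons call a large share of genes, 56.7% in SS/MCW at 7 weeks, 43.6% in SS/MCW on LS at 10 weeks, 49% in SS/MCW on HS, 53.5% in SS/CRL on LS and 50.9% in SS/CRL on HS, a call here is near the background. In SS/MCW rats at 7 weeks S100a8 was at 3.16 FPKM in kidney and 13.2 in circulating cells, and S100a9 at 3.25 and 17.6. The log2 fold changes were -2.06 ± 0.99 and -2.43 ± 0.84, with p = 5e-05 and q = 0.000141 in the authors' deposited table. The test statistic gave q = 0.105 for S100a8 and 0.0165 for S100a9, so that S100a9 was the only one of the pair's 5 called values that the test statistic also called. On LS at 10 weeks S100a9 was at 5.96 FPKM in kidney and 15.6 in circulating cells (-1.39 ± 1.30, 95% interval -3.94 to 1.16), with p = 0.0211 and q = 0.0486 in the authors' deposited table and q = 0.560 from the test statistic. S100a8, at 1.09 and 13.2 FPKM, differed more (-3.59 ± 1.74) but was not called, with p = 0.118 and q = 0.194 in the authors' deposited table.

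In the other tissue comparisons neither gene was called. S100a8 was at 3.47 FPKM in kidney and 7.42 in circulating cells of SS/MCW on HS (-1.09 ± 1.35), at 3.97 and 13.5 in SS/CRL on LS (-1.77 ± 1.17) and at 0.438 and 4.89 in SS/CRL on HS (-3.48 ± 2.48). S100a9 was at 5.49 and 7.59 FPKM (-0.47 ± 0.97), 7.98 and 15.1 (-0.92 ± 0.89), and 3.25 and 3.94 (-0.28 ± 1.46). The median gene model with at least 5 FPKM in both groups was itself shifted by -0.235 to -0.146 in these comparisons. Relative to that median the called values were -1.84 for S100a8 and -2.21 for S100a9 at 7 weeks and -1.20 for S100a9 on LS at 10 weeks. The T cell identity sums, 5151 to 6538 FPKM in circulating and 289.4 to 1084 in kidney cells, moved with these comparisons, and their part in the values of S100a8 and S100a9 was not tested.

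No other S100 gene had a called fall in circulating cells on HS. In circulating cells S100a10, the annexin A2 partner, was at 486 FPKM on LS and 679 on HS in SS/MCW and at 526 and 607 in SS/CRL. S100a4, a motility-linked member, was at 75.4 and 114 FPKM in SS/MCW and at 92.0 and 121 in SS/CRL, and S100a6 at 37.9 and 50.6 and at 37.6 and 52.5. S100a11 was at 28.0 and 38.1 and at 33.4 and 46.7. All 4 stood higher on HS in both rat types, where the calprotectin genes stood lower, and none was called. The rest of the S100 list was mixed. Of its 12 gene models, tested or not, 6 were higher and 6 lower on HS in SS/MCW. In SS/CRL 7 were higher and 4 lower. Of the 12 gene models of the S100 list, 8 were tested in each salt comparison and 0 were called, beside 0.107% of all gene models in SS/MCW and 0.67% in SS/CRL. Their median log2 fold change was 0.38 in SS/MCW and 0.32 in SS/CRL, beside 0.03 and 0.02 over all tested gene models. The list, its tested models and its medians include S100pbp, which encodes a binding partner of S100P and is no S100 gene (-0.30 in SS/MCW and -0.10 in SS/CRL, neither called). S100a13 and S100a14 share a gene model and cannot be read apart. In kidney cells of SS/CRL rats, 9 of the 10 tested had higher values on HS, beside 11047 of 20501 gene models. Of the 10, 2 were called, both higher, beside 5.51% of all gene models called in either direction. They were S100a6, from 931 to 1642 FPKM (q = 0.00588), and S100a11, from 1560 to 2723 FPKM (q = 0.00839), in the authors' deposited table.

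**Figure D3:**
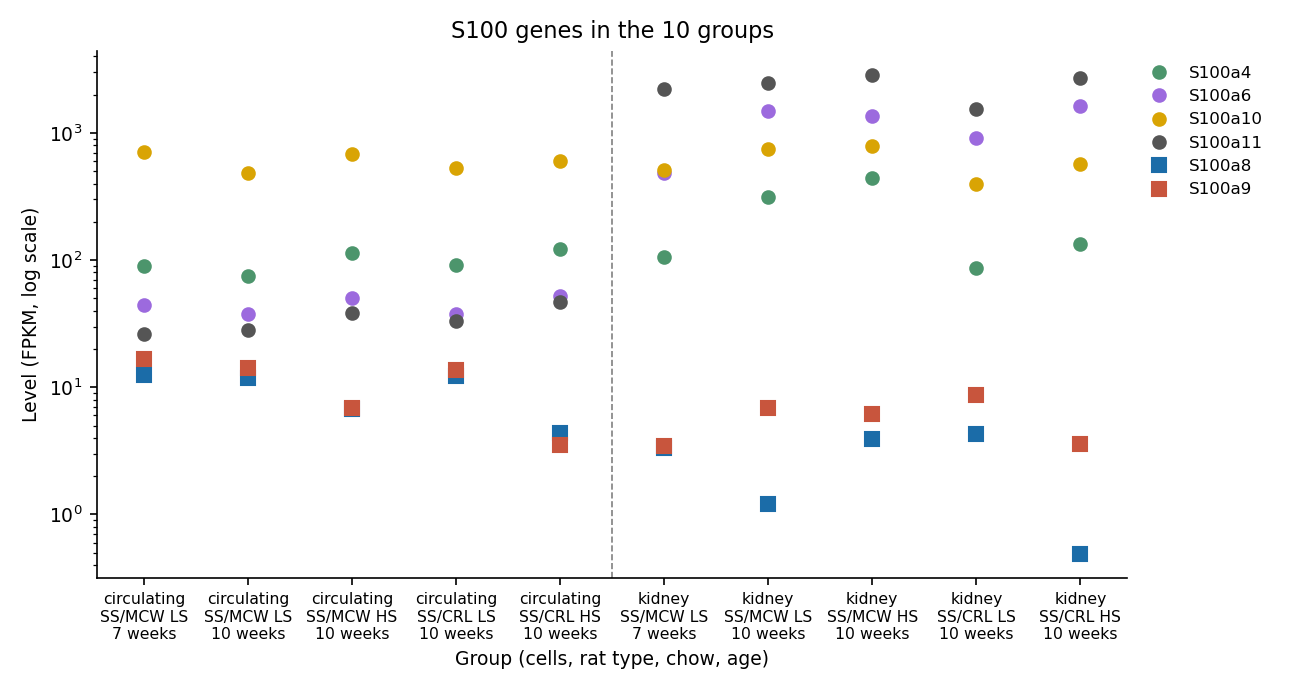
Level in FPKM, on a log scale, of S100a8 and S100a9 (squares) and of S100a4, S100a6, S100a10 and S100a11 (circles) in the 10 groups, circulating left of the dashed line and kidney right of it. S100a8 and S100a9 are the lowest 2 of the 6 genes in every group, and S100a11 is at 26.1 to 46.7 FPKM in circulating and 1529 to 2871 FPKM in kidney cells.

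Neutrophil markers were low throughout the circulating cells. Csf3r, the receptor of the neutrophil growth factor G-CSF, was at 0.411 FPKM on LS and 0.228 on HS in SS/MCW and at 0.496 and 0.331 in SS/CRL. Cxcr2, a chemokine receptor of neutrophils, was at 0.170 and 0.0501 and at 0.130 and 0.0325, and the collagenase gene Mmp8 at 0.109 and 0.0657 and at 0.182 and 0.0343. Ltf, the lactoferrin gene, stayed at 0.0665 to 0.111 FPKM in every circulating group. These genes are thus near 0 in cells where S100a8 and S100a9 are between 3.54 and 16.7 FPKM. Csf3r, Cxcr2 and Mmp8 were lower on HS in both rat types, without a call. Of the granule and secreted neutrophil genes 8 of 14 were lower on HS in both rat types, and of the surface and receptor genes 8 of 18. The share over all 31677 gene models was 24.8%, but models at 0 in both groups count there and cannot be lower. Among tested gene models, 7828 of 16885 were lower in SS/MCW and 8003 of 17169 in SS/CRL. Of the tested granule and secreted genes 4 of 7 and 5 of 8 were lower, and of the surface and receptor genes 7 of 10 and 4 of 9. Mpo, the myeloperoxidase gene, and Elane had no gene model. None of the tested surface and receptor genes was called in either rat type, 10 in SS/MCW and 9 in SS/CRL, and their median log2 fold change was -0.45 and 0.00. Of the granule and secreted genes 0 of 7 tested were called in SS/MCW and 1 of 8 in SS/CRL, beside 0.107% and 0.67% of all gene models, with a median of -0.05 in both. It was Fcnb, a ficolin of granulocytes and monocytes, which rose from 3.91 to 7.53 FPKM in SS/CRL (q = 0.0106 in the authors' deposited table). Lyz2, lysozyme of neutrophils and macrophages, was at 37.6 FPKM on LS and 52.4 on HS in SS/CRL (q = 0.0879 in the authors' deposited table). The part of neutrophil RNA in the fall of S100a8 and S100a9 was not tested.

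**Figure D4:**
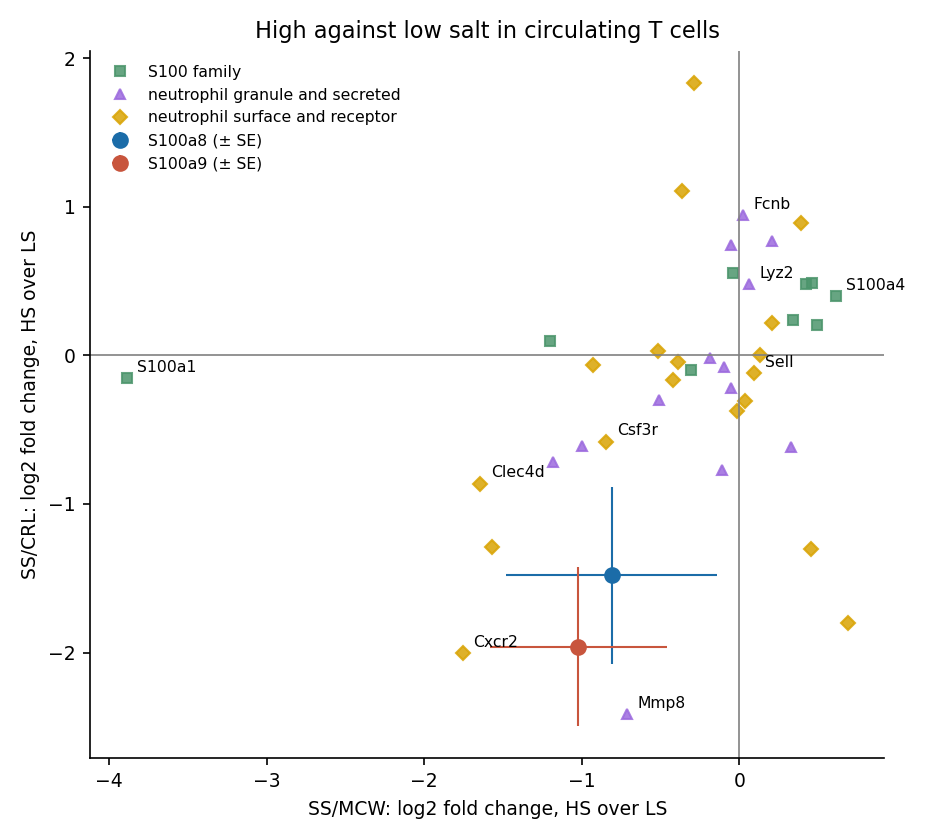
Log2 fold change on HS over LS in circulating cells of SS/MCW (x axis) and SS/CRL (y axis) rats for S100a8 and S100a9, each ± SE, and for the genes of the S100 and neutrophil lists with a value above 0 in all 4 groups; most of the neutrophil genes are under 1 FPKM and carry no error bar. S100a8 (-0.81 and -1.48) and S100a9 (-1.02 and -1.96) lie in the lower left, with Cxcr2 and Mmp8, while Fcnb and S100a4 lie above 0 on the y axis.

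Of the 17 monocyte and macrophage genes, 11 had higher and 3 lower values on HS in circulating SS/CRL cells, and 8 had higher and 5 lower values in SS/MCW cells; the others were equal. Among those tested, 9 in SS/CRL (median log2 fold change 0.34) and 8 in SS/MCW (median 0.14), 0 were called, beside 0.67% and 0.107% of all gene models. Of the tested, 9 of 9 in SS/CRL and 7 of 8 in SS/MCW were higher on HS. Over all tested gene models it was 9166 of 17169 and 9057 of 16885. Csf1r, the receptor of the macrophage growth factor, was at 2.40 FPKM on LS and 3.19 on HS in SS/CRL and at 2.75 and 2.2 in SS/MCW. Cd14 was at 0.354 and 0.428 in SS/CRL and at 0.219 and 0.198 in SS/MCW. Tyrobp, a signalling adaptor of myeloid and natural killer cells, was at 25.1 and 34.8 in SS/CRL and at 11.9 and 13.7 in SS/MCW. The complement genes C1qa and C1qc, markers of tissue macrophages, were listed at 0 in all 5 circulating groups. Among the chemoattractants and cytokines, 1 of 7 tested was called in SS/CRL, beside 0.67% of all gene models, and it fell: Il1b, the interleukin-1β gene of activated myeloid cells, from 1.96 to 0.786 FPKM (log2 fold change -1.32, p = 0.0001 and q = 0.0185 in the authors' deposited table). In SS/MCW Il1b was at 1.16 and 0.637 FPKM (-0.87, q = 0.611 in the authors' deposited table). Hemoglobin and platelet genes moved with the same comparison. In SS/CRL 4 of 4 red cell genes tested and 7 of 7 platelet genes had higher values on HS, beside 9166 of 17169 gene models. Of these, 3 red cell and 2 platelet genes were called, beside 0.67% of all gene models. Among the called were Hba1, from 38.7 to 74.8 FPKM, and Pf4, from 22.8 to 44.1 FPKM (q = 0.0106 for each in the authors' deposited table). Whether blood cell content bears on S100a8 and S100a9 was not tested.

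The transcription factors of myeloid cells gave 0 calls in the circulating salt comparisons, of 6 tested in each rat type (median log2 fold change -0.04 in SS/MCW and 0.07 in SS/CRL). The shares of all gene models called were 0.107% in SS/MCW and 0.67% in SS/CRL. Cebpb, a factor of neutrophil and macrophage genes, was at 7.43 FPKM on LS and 7.68 on HS in SS/MCW and at 5.90 and 7.00 in SS/CRL, and Spi1, which encodes PU.1, at 1.89 and 1.81 and at 2.16 and 2.42. In kidney cells Cebpb rose on HS in SS/MCW rats, from 74.1 to 190 FPKM (q = 0.0373 in the authors' deposited table). In the kidney comparison of SS/CRL with SS/MCW on HS, 15 of 18 T cell genes, 10 of 15 monocyte and macrophage genes and 5 of 9 myeloid transcription factors were called lower in SS/CRL, beside 5.72% of all gene models. S100a8 and S100a9 were lower there too, at -3.01 ± 2.76 and -0.78 ± 1.51, and not called.

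Of the receptors of calprotectin, Tlr4 was near 0 in circulating cells. It was at 0.0159 to 0.0538 FPKM in the circulating groups and at 0.138 to 0.897 in the kidney groups. Ager, which encodes RAGE, shares a gene model with Pbx2 and cannot be read apart. Bsg, which encodes basigin and binds S100A9, was at 76.8 to 95.3 FPKM in circulating and 618 to 911 FPKM in kidney cells, and Cd14, the TLR4 co-receptor, at 0.198 to 0.428 and 8.54 to 14.2 FPKM. Anxa6 was at 176 to 217 and 63.1 to 110 FPKM and Myd88, the adaptor of TLR4 signalling, at 23.9 to 28.8 and 15.0 to 20.3. In circulating cells on HS 0 of the receptor and effector genes tested were called, of 5 in SS/MCW and 6 in SS/CRL. The shares of all gene models called were 0.107% and 0.67%. All of the tested genes had higher values on HS, beside 9057 of 16885 and 9166 of 17169 tested gene models. Of all 10 listed genes, tested or not, 3 had lower values on HS in each rat type. In kidney cells of SS/CRL rats 1 of 8 was called, beside 5.51% of all gene models. It was Tgm2, a transglutaminase, which fell from 207 to 86.2 FPKM on HS (q = 0.00171 in the authors' deposited table).

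Likeness of pattern was measured as Pearson's r of log2(FPKM + 1) over the 10 groups, after the mean of each tissue was subtracted, among 10616 gene models with a symbol and at least 5 FPKM in a group. The groups share their processing and the tissues' RNA content, and r is given as a description. The nearest to S100a8 were RGD1564405 (r = 0.881), Arid4b (0.877), Usp40 (0.874), Zmym3 (0.865) and Med12 (0.857), and S100a9 was 196th (0.684). Nearest to S100a9 were Rlf (0.818), Med7 (0.815), Trmt10c (0.799), Pde4d (0.792) and Chd8 (0.757), and S100a8 was 30th. Within kidney cells the pair's values had opposite signs from 7 to 10 weeks (-1.50 and 0.93) and on HS in SS/MCW rats (1.65 and -0.17).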

How the data were processed

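The deposited files are 15 Cuffdiff tables from 40 libraries. Per the submitters' processing notes, the tools were cutadapt, Trim Galore 0.2.5, TopHat, TopHat2 2.1.1, Cufflinks 2.2.1 and Cuffdiff, on build rn5. Per the file headers, the authors deposited FPKM, 1 value per group, and the test statistic, a score, with its p-value and q-value. No values per library were used, so the depth of each sample and the precision it gives are unknown, and p-values rest on the authors' model. The circulating and kidney pools of a group of rats carry the same title numbers, and whether they came from the same rats is not stated.

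The fold change column, which a spreadsheet had partly altered, was replaced by log2 ratios of the deposited FPKM; 1 table was reversed. A call needs status OK and q under 0.05. Differences between 2 salt effects were tested as normal deviates, with the 2 effects taken as independent and Benjamini-Hochberg adjustment over all tested gene models. The procedure was first run on simulated differences drawn with the same SEs. That run could not show whether these SEs fit the data. The tools were scipy 1.17.1, numpy 2.4.6 and pandas 2.3.3 in Python 3.11.15, with figures drawn by matplotlib 3.10.9.

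The members and the 16 gene lists (220 genes, 197 matched, 4 by a synonym) were chosen with earlier results of these data known. Named by rule were S100a8 and S100a9, the 5 models most like each, the 4 members of a list with the highest levels, the markers Cd3e, Csf3r, Mpo, Ltf, Cd14, Csf1r, Tlr4 and Ager, and the neighbouring models. Other genes, among them S100a11, Cxcr2, Mmp8, Spi1, Elane, C1qa, C1qc and Tgm2, were named after their values were seen. Alternatives were the q threshold, a filter on low values, the p-value of the test statistic, centring, the pseudocount and the table read.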

Additional observations from a re-analysis of the deposited data

How the results depend on the processing

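No paired analysis was possible because the deposited tables hold 1 value per group; for the same reason no library could be left out. A pseudocount of 1 kept the direction of all 30 log2 fold changes. Subtracting the median gene model turned 1 of them, that of S100a8 from 7 to 10 weeks in circulating SS/MCW cells, which went from -0.02 to 0.03 and was not called. A filter at 1 FPKM changed no call. With q under 0.01 in place of 0.05, S100a8 and S100a9 in circulating SS/CRL cells on HS (q = 0.0106 each) and S100a9 in kidney against circulating SS/MCW cells on LS at 10 weeks (q = 0.0486) were no longer called. In the circulating SS/CRL comparison 0.0106 was the smallest q of any gene model, so none could pass 0.01. The loss of those 2 calls was thus fixed in advance and says nothing about the pair. With a normal p-value of the test statistic, q became 1.000 for S100a8 and 0.335 for S100a9 in circulating SS/CRL cells on HS, 0.105 for S100a8 in kidney against circulating SS/MCW cells at 7 weeks and 0.560 for S100a9 in the LS comparison at 10 weeks; the cause of the gap between the deposited p-values and the test statistics was not tested. The 8 differences between salt effects did not pass under any alternative. Over the tables that hold a group, the ratio of S100a9 to S100a8 ran from 5.45 to 5.72 in kidney SS/MCW cells on LS at 10 weeks and from 7.28 to 7.43 in kidney SS/CRL cells on HS. Of the 5 gene models most like each gene, a pseudocount of 0.1 kept 4 for both, and no centring kept 2 for S100a8 and 1 for S100a9.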
